A study of Homo sapiens with 21 samples.

Results

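Neocarzinostatin (NCS) is a radiomimetic drug that breaks both strands of DNA, and the values described here are those of hTERT-HPNE cells 24 h after NCS beside those of untreated cells. The comparison used 6 of the 21 libraries of the series, 3 biological replicates of cells harvested 24 h after 400 ng/ml NCS and 3 of untreated cells harvested at 0 h. Its members were all genes whose values varied, 19694 of the 23368 genes listed. The other 15 libraries came from cells 4 or 8 h after the same dose of NCS and from cells 4, 8 or 24 h after 300 μM hydrogen peroxide (H2O2). All cells were of the same line, an immortalized nontransformed pancreatic line that carries telomerase, and all were kept in medium with serum, EGF and puromycin. The medium was renewed when the agents were added. The untreated cells were harvested at that time and not 24 h later, so a change brought by NCS and a change over 24 h in the renewed medium cannot be told apart in this comparison.

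DNA double-strand breaks activate the kinase ATM and, through it, the transcription factor p53. In dividing cells p53 induces CDKN1A, which encodes the cyclin-dependent kinase inhibitor p21. When cyclin-dependent kinases are held back, the pocket proteins RB1, RBL1 and RBL2 and the DREAM complex keep genes of DNA replication and mitosis off, many of them through E2F sites and a short element near the start of the gene, the cell cycle genes homology region (CHR). The same cells can induce repair, death and secreted factors, and which of these prevails differs between cell types and kinds of damage.

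The values are rLog values, counts that the authors normalized for library size and took to a log2 scale with shrinkage, so that small counts move less. A difference of 1 is a doubling before shrinkage, and the true change of a gene, above all of one with few reads, can be larger than its rLog difference. The values hold no counts, and the depth of the libraries is unknown. Levels are not scaled for gene length, so levels of different genes are not compared beyond a rough check of marker genes. The medians of the 6 libraries lay between 7.14 and 7.16. Pearson correlations across genes, which are not independent replicates, were 0.9999 between replicates and 0.9983 to 0.9984 between the groups. Of the mesenchymal markers, FN1, COL1A1, VIM, COL1A2, CDH2, NES, THY1 and S100A4 had means of 20.13, 17.97, 17.05, 16.48, 12.53, 12.12, 9.30 and 5.10 in untreated cells. The pancreatic duct markers KRT7, MUC1, SOX9, CDH1, KRT19, CFTR and EPCAM had means of 6.74, 6.12, 5.93, 3.77, 0.60, -1.34 and -1.76, so that the defining duct genes KRT19, CFTR and EPCAM were no higher than 0.60. The tested markers of acinar, endocrine, immune and endothelial cells had group means of 3.13 or below, apart from CD68 (9.97 in untreated cells, difference 0.52) and TEK (8.68, difference -0.52). PTPRC (0.94) and CDH5 (-2.04), which define immune and endothelial cells, were among the low ones. The part of other cells in the results was not tested.

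A gene was taken to have passed when its adjusted p-value from limma, with Benjamini-Hochberg adjustment over all 19694 genes, was under 0.05, and was called when its log2 difference was also over 1 in either direction. After NCS for 24 h, 25 genes were called higher, 0.127% of those tested, and 270 were called lower, 1.37%. By the adjusted p-value alone, 3863 genes (19.6%) were higher and 3627 (18.4%) lower, with a median absolute difference of 0.23. The 3 NCS libraries lay wholly above or below the 3 untreated ones for all 295 called genes and for 44.5% of all genes tested. The median difference over all genes was 0.00. Just inside the limit lay HIST1H2BD (1.0009), SESN2 (1.0013) and HES2 (1.0057), and just outside it ARHGAP11B (-0.9969), CKS1B (-0.9963) and C1orf112 (-0.9936). The labels call the replicates biological without saying that they were separate cultures, so p-values measure the spread between these samples, part of which may be technical. With 3 libraries against 3 an exact permutation test of a single gene cannot give a two-sided p below 0.1. In the plot of all genes, most genes of cell division lie below the line at -1 and most of those of the p53 response above 0.

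**Figure D1:**
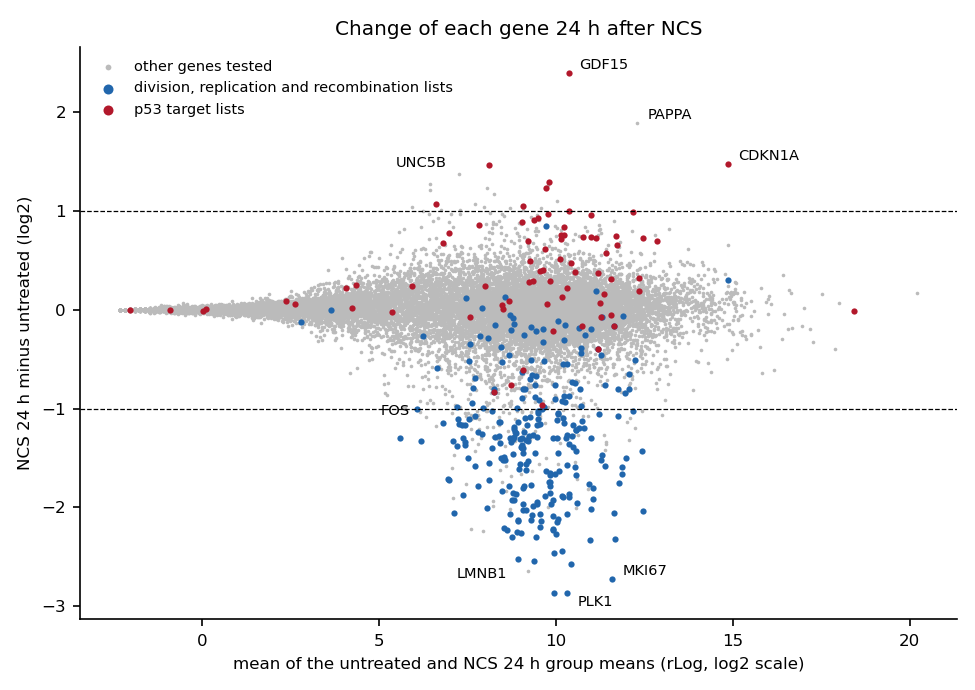
Each point is 1 of 19694 genes, with the mean of both group means on the x axis and the difference NCS 24 h minus untreated on the y axis, both on the rLog (log2) scale. Genes of the 8 cell division, replication and recombination lists are blue, genes of the 4 p53 lists red (a gene on both is drawn red), and the dashed lines mark 1 and -1. The lowest points are PLK1 and KIF20A at -2.87 and the highest is GDF15 at 2.40.

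The deepest falls were those of genes of mitosis. PLK1, the kinase that drives entry into mitosis and spindle assembly, had values of 11.70, 11.79 and 11.82 in the untreated libraries and 8.89, 8.90 and 8.89 after NCS, a difference of -2.87 (SE 0.11, adjusted p = 9.41e-14 from limma). The gap between the groups was far wider than the spread within either. KIF20A, a kinesin of the central spindle in cytokinesis, went from 11.32, 11.43 and 11.40 to 8.53, 8.44 and 8.58, also a difference of -2.87 (SE 0.09). MKI67, the proliferation marker Ki-67 that coats mitotic chromosomes, went from 12.89, 12.99 and 12.96 to 10.13, 10.24 and 10.30 (difference -2.73, SE 0.08). None of these libraries overlapped between the groups. LMNB1, which encodes lamin B1 of the nuclear lamina, went from 10.49, 10.60 and 10.51 to 7.82, 7.87 and 7.95 (-2.65, SE 0.08), and CDC20, an activator of the anaphase-promoting complex (APC), from 11.63, 11.73 and 11.79 to 9.08, 9.12 and 9.21 (-2.58, SE 0.10). The other genes among the 15 deepest falls were CDCA8, HJURP, CCNA2, ASPM, CENPF, TOP2A, KIF18B, BUB1B, KIF2C and CDCA3, with differences from -2.55 to -2.26. All of them act in mitosis or at the centromere, except CCNA2, the cyclin of S and G2 phase, and TOP2A, a topoisomerase that also serves chromosome segregation. In RNA of whole cultures, fewer cells in a phase of the cell cycle and less of its RNA per cell cannot be told apart. By flow cytometry of the same line and dose, the authors reported that surviving cells gathered strongly in G2/M after NCS. The part of this in the RNA values was not tested.

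The sequences before the start of 6 of the genes called lower show the elements by which such genes are known to be grouped. In the lines that follow, capitals mark matches to the CHR (TTTGAA or TTCGAA), to the CCAAT box (CCAAT) or to an E2F site (TTTCCCGC, TTTGGCGC or TTTCGCGC), each on either strand. Each line holds the 130 bases before the first listed RefSeq start, build GRCh38.p14, in the direction of the gene. The first 3 are genes of mitosis that hold a CHR and the last 3 genes of S phase that hold an E2F site.
PLK1, chr16:23678759-23678888, plus strand: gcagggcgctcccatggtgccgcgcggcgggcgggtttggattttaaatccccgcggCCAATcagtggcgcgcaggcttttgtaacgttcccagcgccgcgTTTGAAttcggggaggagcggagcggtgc
CCNB2, chr15:59105016-59105145, plus strand: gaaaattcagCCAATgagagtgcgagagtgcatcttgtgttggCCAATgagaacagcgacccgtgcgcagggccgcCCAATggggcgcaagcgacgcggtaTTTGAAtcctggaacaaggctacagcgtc
MKI67, chr10:128126424-128126553, minus strand: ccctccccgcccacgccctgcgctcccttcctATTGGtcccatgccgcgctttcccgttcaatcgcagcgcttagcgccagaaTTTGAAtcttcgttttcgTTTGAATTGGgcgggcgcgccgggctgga
CDT1, chr16:88803659-88803788, plus strand: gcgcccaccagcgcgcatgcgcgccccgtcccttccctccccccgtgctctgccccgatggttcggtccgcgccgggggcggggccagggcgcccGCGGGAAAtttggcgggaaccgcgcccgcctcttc
DTL, chr1:212035618-212035747, plus strand: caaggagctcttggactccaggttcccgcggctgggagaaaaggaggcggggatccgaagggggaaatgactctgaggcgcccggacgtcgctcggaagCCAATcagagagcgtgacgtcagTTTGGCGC
UHRF1, chr19:4909371-4909500, plus strand: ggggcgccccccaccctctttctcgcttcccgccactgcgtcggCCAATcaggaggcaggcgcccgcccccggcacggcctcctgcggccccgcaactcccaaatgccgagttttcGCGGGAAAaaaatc
PLK1 and CCNB2 both have the CHR 29 bases before the start, and MKI67 has one at 29 and one at 47. In CCNB2, the partner of CDK1 in mitosis, 3 CCAAT boxes precede the CHR at 54, 87 and 120 bases. In MKI67 the last base of a CHR is also the first of a CCAAT box read on the other strand, so those matches overlap. The E2F sites lie 35 bases before the start in CDT1, 8 in DTL and 14 in UHRF1.

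Of the 270 genes called lower, 223 (82.6%) had a promoter in the table, counted from 250 bases before to 50 after the first listed start. A CHR was present in 98 of these (43.9%), against 16.6% of the 27305 promoters of the whole table. The CCAAT box was present in 60.5% against 35.7%, both elements together in 32.3% against 6.58%, and an E2F site in 21.1% against 2.79%. Among all tested genes with a promoter, 13964 in number and 70.9% of those tested, the shares were 12.4% for the CHR, 36.2% for the CCAAT box and 3.93% for the E2F site. The elements were counted by list where at least 80% of the members had a promoter, and only some of these lists are given. Of the 44 genes of mitotic kinesins, spindle and cytokinesis, 39 had a promoter, of which 33 held a CHR and 4 an E2F site. Of the 56 genes of origin licensing and the replication fork, 50 had a promoter, of which 2 held a CHR and 22 an E2F site. Of the 38 genes of homologous recombination and the Fanconi pathway, 34 had one, of which 4 held a CHR and 7 an E2F site. Elements were also common in lists with no gene called lower. Of the 20 ER chaperones and unfolded protein response genes, 19 had a promoter, of which 17 held a CCAAT box (89.5%). Of the 62 clustered histone genes, 50 had a promoter, of which 20 held a CHR and 12 an E2F site. None of the 62 was called lower, and their median difference was 0.00. The libraries were made from polyadenylated RNA and most histone messages of S phase carry no poly(A) tail, so a fall in them could be missed. In the genes called lower, most CHR matches began between 50 bases before and 25 after the start, as the plot of motif positions shows. A match is a run of letters, and whether a protein was bound there was not measured. Of the 25 genes called higher, 21 had a promoter, of which 3 held a CHR (14.3%), 12 a CCAAT box (57.1%) and 1 an E2F site (4.76%). The CCAAT share was thus near the 60.5% of the genes called lower. The p53 consensus, with 1 mismatch allowed over its 20 bases, was present in 1 of the 21 promoters and in 0.0916% of all promoters. The windows hold only the sequence next to the start.

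**Figure D2:**
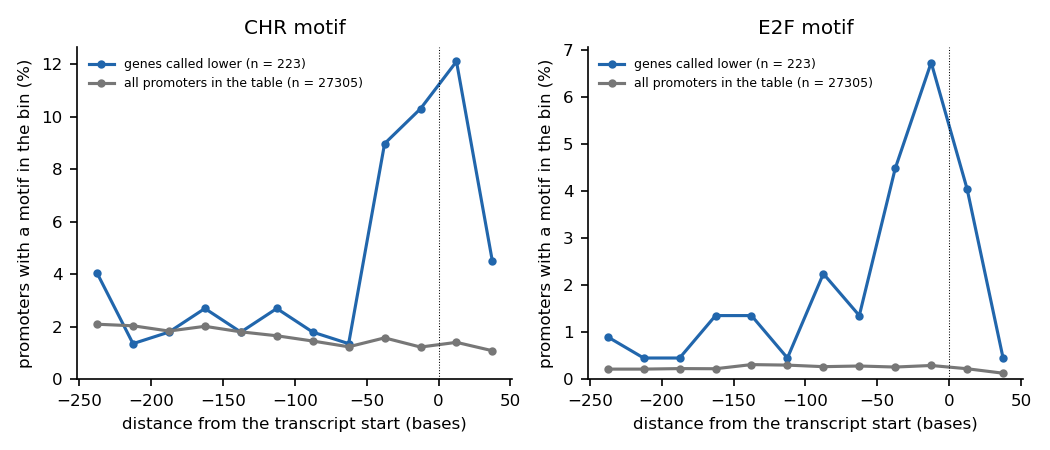
Share of promoters, in %, with a CHR (left) or an E2F site (right) that begins in each bin of 25 bases, against the distance from the transcript start in bases. Blue points are the 223 promoters of genes called lower and grey points all 27305 promoters in the table. The CHR is in 8.97%, 10.3% and 12.1% of the called promoters in the 3 bins around the start, against 1.57%, 1.22% and 1.40% of all promoters.

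Genes of cell division and replication were grouped in 8 lists, which hold 259 of the genes tested and include the list of homologous recombination and Fanconi genes, described with DNA repair. Of these, 178 were called lower and none higher, and they make up 65.9% of all genes called lower. Without that list, the other 7 hold 221 genes, of which 159 were called lower, 58.9% of all genes called lower. Of the 259 genes of all 8 lists, 248 were lower and 4 higher by the adjusted p-value. Their median difference was -1.30, against 0.00 over all genes. The plot of all lists gives each member. Counts in this and the other lists stand beside 19.6% higher and 18.4% lower by the adjusted p-value among all genes tested.

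All 27 genes of mitotic kinases, cyclins and APC activators passed as lower, and 25 were called, with a median difference of -1.79 and a range of -2.87 to -0.31. AURKA and AURKB, the Aurora kinases of the spindle poles and of the centromere, had differences of -2.09 and -2.14. CDK1, the kinase of mitotic entry, had untreated values of 10.72, 10.67 and 10.76 and NCS values of 8.90, 8.89 and 9.0, a difference of -1.79 (SE 0.07, adjusted p = 1.21e-13 from limma). Its partners CCNB1 and CCNB2 had differences of -1.92 and -1.99. BUB1, a kinase of the spindle checkpoint, had a difference of -2.23.

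Of the 41 kinetochore and centromere genes, all were lower and 31 were called (median -1.15, range -2.55 to -0.17). CENPA, the histone H3 variant that marks the centromere, had a difference of -2.06 and HJURP, its chaperone, one of -2.52. CENPF (-2.33), CENPE (-1.86), NDC80 (-2.25) and CDCA8 (-2.55), the last a subunit of the chromosomal passenger complex, were also called. All 44 genes of mitotic kinesins, spindle and cytokinesis were lower and 41 were called, with the deepest median of all lists, -1.94. PRC1, which bundles the central spindle, had a difference of -2.06, ANLN, the scaffold of the contractile ring, of -2.04 and KIF11, the kinesin that separates the poles, of -2.12. KIF23 (-1.81) and ECT2 (-1.22), which activates RhoA at the cleavage site, were also called.

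Of the 18 genes of condensin, cohesin and chromosome structure, 17 were lower and 11 called (median -1.26). The condensin subunits NCAPG, NCAPH and SMC4 had differences of -1.89, -2.08 and -1.66. TOP2A had untreated values of 12.84, 12.75 and 12.88 and NCS values of 10.42, 10.54 and 10.53, and its highest NCS library was more than 2 units below its lowest untreated one.

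Genes that prepare and run DNA replication were lower as well. Of 56 genes of origin licensing and the replication fork, 55 were lower and 39 called, with a median of -1.22 and a deepest difference of -1.90, that of UHRF1, which keeps DNA methylation at the fork. MCM10, which starts the replicative helicase, went from 9.79, 9.83 and 9.80 to 7.90, 7.97 and 7.94 (difference -1.87, SE 0.04, adjusted p = 3.78e-16 from limma). The licensing factors CDC6 and CDT1 had differences of -1.66 and -1.53, the helicase subunit MCM2 of -1.57, the origin subunit ORC1 of -1.72, the ubiquitin ligase subunit DTL of -1.74 and GINS2 of -1.33. PCNA, the clamp of the polymerases and also a p53 target, fell by 0.40. Its untreated values were 11.38, 11.43 and 11.39 and its NCS values lay between 10.96 and 11.02.

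Of the 10 genes of deoxynucleotide synthesis, 9 were lower and 3 called (median -0.80). RRM2, the S-phase subunit of ribonucleotide reductase, went from 12.65, 12.70 and 12.67 to 10.87, 10.94 and 10.95 (-1.75, SE 0.03, adjusted p = 1.6e-18 from limma). TYMS (-1.24) and RRM1 (-1.08) were also called, while TK1 (-0.84) passed below the limit. RRM2B, the p53-induced alternative to RRM2, moved the other way, from 9.85, 9.78 and 9.80 to 10.65 in all 3 libraries, a difference of 0.84 (SE 0.05).

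Genes of the E2F, FOXM1 and MYBL2 factors and of their regulators were mostly lower as well. Whether their fall had a part in the other falls was not tested. Of 26 genes of E2F, FOXM1 and MYBL2 regulation, 21 were lower, 10 of them called, and 3 were higher (median -0.56). E2F1, FOXM1 and MYBL2 had differences of -1.45, -1.47 and -1.63, and the cyclins CCNE2 and CCNA2 of -1.88 and -2.46. Of the pocket proteins, RBL1, itself an E2F target, had a difference of -1.34, RB1 of -0.39 and RBL2 of -0.11. Higher were the G1 cyclins CCND2 (0.85), which is also a gene of growth arrest in some cells, and CCND1 (0.30), and LIN37 (0.13), a subunit of the DREAM complex. The E2F genes E2F1, E2F2, E2F7 and E2F8 had differences of -1.45, -1.30, -0.16 and -1.33.

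**Figure D3:**
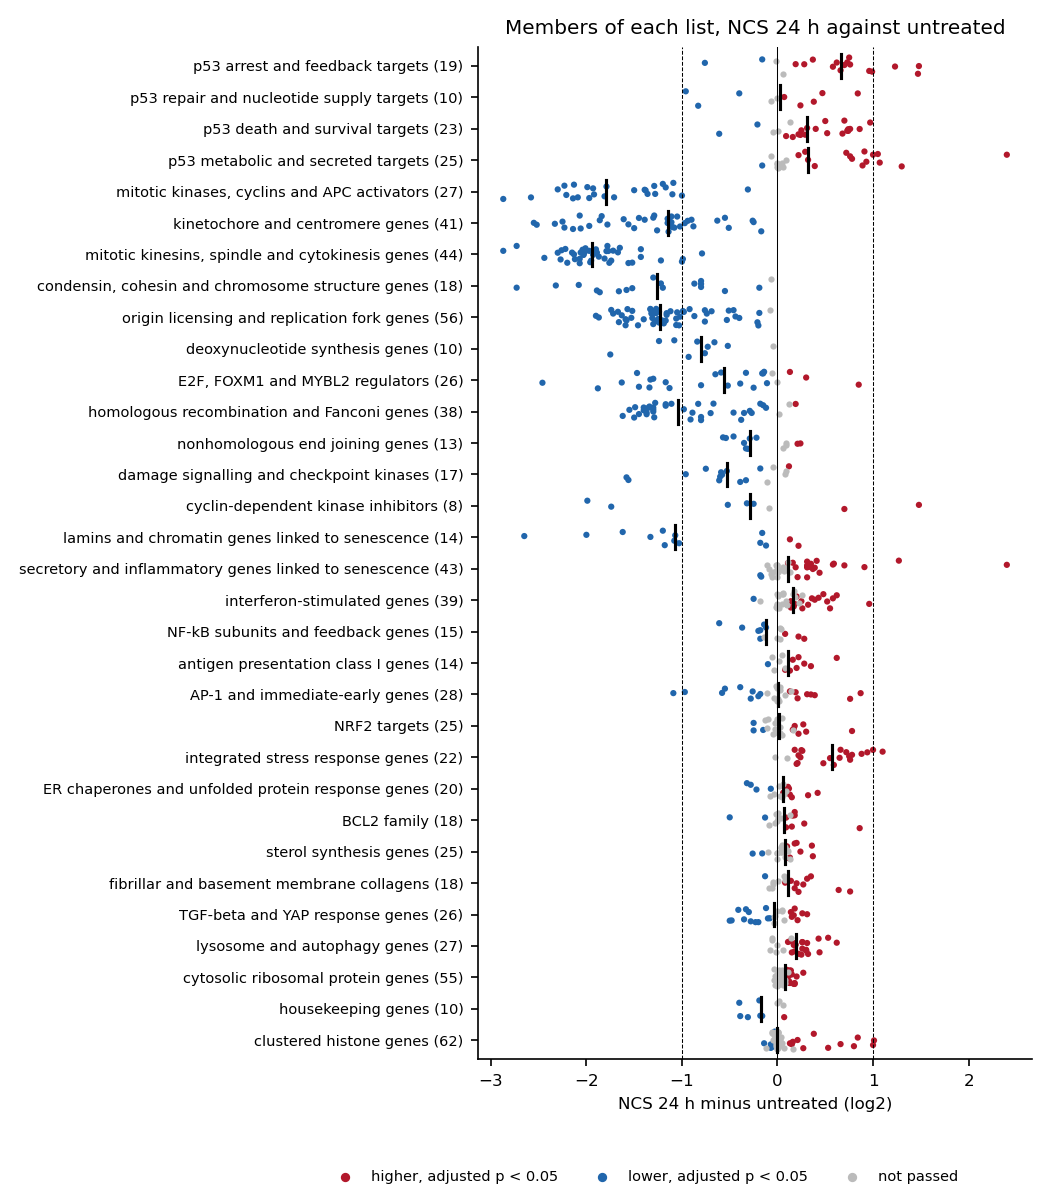
Each point is 1 gene, on the x axis its difference NCS 24 h minus untreated on the log2 scale, with 1 row for each of 32 lists and the number of genes tested in brackets. Red and blue mark an adjusted p under 0.05 (higher and lower), grey the rest, black bars the medians and dashed lines the limits of 1 and -1. The spindle list has the lowest median, -1.94, and the list of p53 arrest and feedback targets the highest, 0.66.

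Genes of DNA repair were read by pathway. Of 38 genes of homologous recombination and the Fanconi pathway, 35 were lower, 19 of them called, and 1 was higher (median -1.04). BRCA1, BRCA2 and FANCD2 had differences of -1.17, -1.35 and -1.45 and the polymerase POLQ one of -1.62. BLM, EXO1 and RAD54L had differences of -1.55, -1.49 and -1.50. Of 13 genes of nonhomologous end joining, which is open in all phases, 8 were lower, 2 higher and none called (median -0.29). PRKDC, the catalytic subunit of DNA-PK, had a difference of -0.57, RIF1 of -0.54, XRCC4 of -0.46, C9orf142, which encodes the end joining factor PAXX, of -0.35 and XRCC5, a Ku subunit, of -0.33. LIG4, the ligase of the pathway, had values of 9.42, 9.19 and 9.20 in untreated cells and 9.41, 9.36 and 9.31 after NCS, and did not pass.

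Of 17 genes of damage signalling and checkpoint kinases, 12 were lower, 2 of them called, and 1 was higher (median -0.53). The called genes were CDC25A, the phosphatase that opens S phase (-1.58), and H2AFX, the histone variant phosphorylated at breaks (-1.56). The effector kinases CHEK1 and CHEK2 had differences of -0.53 and -0.75, and TOPBP1, an activator of ATR, one of -0.96. ATM itself, with untreated values of 10.75, 10.70 and 10.63 and NCS values of 10.85, 10.70 and 10.79, and ATR (-0.11, adjusted p = 0.0545 from limma) did not pass.

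Of the genes called higher, 32.0% were on the lists of p53 targets described next. Those lists were chosen with earlier results of these data known, and a gene outside them may still be a p53 target. GDF15, a stress-induced cytokine of the TGF-beta family, rose most, from 9.16, 9.16 and 9.19 to 11.48, 11.62 and 11.61, a difference of 2.40 (SE 0.11, adjusted p = 2.37e-12 from limma), and was the only gene above 2. PAPPA, a secreted protease that frees insulin-like growth factors from a binding protein, rose from 11.41, 11.33 and 11.32 to 13.23, 13.21 and 13.29 (1.89, SE 0.03). CDKN1A rose from 14.13, 14.14 and 14.08 to 15.56, 15.61 and 15.62 (1.48, SE 0.07). In all 3 genes the lowest NCS library was well over 1 unit above the highest untreated one. BTG2, an antiproliferative gene, rose by 1.47 from 7.47, 7.34 and 7.37 to 8.74, 8.90 and 8.94. UNC5B, a netrin receptor, rose by 1.38, FDXR, a mitochondrial ferredoxin reductase, by 1.30, PTCHD4, a relative of the Hedgehog receptor, by 1.28, SERPINE2, a secreted protease inhibitor, by 1.27, and SLC16A4, of the monocarboxylate transporter family, and TP53INP1, a p53-induced nuclear protein, both by 1.23. The other genes of the 15 largest rises were CYFIP2 (1.21), ADM2 (1.17), TRIB3 (1.10), PLXNB3 (1.07) and SPATA18 (1.07).

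The p53 targets were grouped in 4 lists that hold 76 of the genes tested. Of these, 52 were higher and 8 lower by the adjusted p-value, 8 were called higher and none lower, with a median of 0.35. Of 19 targets of arrest and feedback, 15 were higher, 3 of them called, and 2 lower (median 0.66). MDM2, the ubiquitin ligase that limits p53, had untreated values of 11.72, 11.75 and 11.63 and NCS values of 12.66, 12.72 and 12.69, and its difference of 0.99 (SE 0.06) was just under the limit. PPM1D, the phosphatase that shuts off the ATM signal, rose by 0.28 and CCNG1 by 0.58. The lower genes were WRAP53 (-0.76) and E2F7 (-0.16). SFN, whose product 14-3-3 sigma holds epithelial cells in G2, had values from 2.56 to 2.63 in untreated cells and 2.63 to 2.67 after NCS, near the low end of the scale, and did not pass.

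Of 23 targets of death and survival, 18 were higher, 2 lower and none called (median 0.31). The largest rises were those of EDA2R (0.97), a receptor of the TNF family, and BBC3 (0.86), the BH3-only protein PUMA, whose values went from 7.29, 7.46 and 7.47 to 8.19, 8.30 and 8.30. The death receptors FAS and TNFRSF10B rose by 0.74 and 0.73, TP53I3 by 0.74 and PLK3 by 0.76. BAX, the effector of the mitochondrial pathway, rose by 0.16. PMAIP1, the BH3-only protein NOXA, had untreated values of 10.10, 10.16 and 10.04 and NCS values of 10.24, 10.24 and 10.22, which do not overlap, and did not pass (difference 0.13, adjusted p = 0.139 from limma). Lower were SIVA1 (-0.61) and APAF1 (-0.21), the scaffold of the apoptosome.

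Of 25 metabolic and secreted targets, 15 were higher, 5 of them called, and 1 lower (median 0.32). The called genes were GDF15, FDXR, SPATA18, which acts in mitochondrial quality control, FUCA1, a lysosomal fucosidase (1.05), and SESN2, a sestrin that restrains mTORC1 (1.00). SESN1 rose by 0.89, LIF, a cytokine of the IL-6 family, by 0.91 and C12orf5, the fructose bisphosphatase TIGAR, by 0.72. Of 10 targets of repair and nucleotide supply, 5 were higher and 3 lower, with no gene called and a median of 0.03. XPC and DDB2, which recognize damage in nucleotide excision repair, rose by 0.47 and 0.38, and POLH, a translesion polymerase, by 0.07. FANCC (-0.83) and PCNA (-0.40), among the lower members, are also genes of replication and its repair.

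Of the 8 cyclin-dependent kinase inhibitors, CDKN1A was called higher and CDKN2C (-1.99) and CDKN3 (-1.74) were called lower. CDKN2B, which encodes p15, rose from 8.94, 8.83 and 8.80 to 9.54, 9.53 and 9.60 (0.70, SE 0.05). CDKN2A was lower, with untreated values of 6.25, 6.13 and 6.23 and NCS values of 6.03, 5.97 and 5.85 (-0.25, adjusted p = 0.0252 from limma), and it no longer passed without NCS replicate 3, untreated replicate 1 or untreated replicate 3. By the adjusted p-value 2 of these genes were higher and 5 lower (median -0.29).

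A lasting arrest, senescence, is a known outcome of such damage, and some groups of genes are linked to it. Whether these cells were senescent was not tested, and in these values senescence and any other arrest cannot be told apart. Of 14 lamins and chromatin genes, 12 were lower, 9 of them called, and 2 were higher (median -1.08). HMGB2, a chromatin protein, went from 10.77, 10.76 and 10.82 to 8.72, 8.84 and 8.81 (-2.0, SE 0.05), and the methyltransferases EZH2 and SUV39H1 had differences of -1.62 and -1.33. LMNA, the gene of lamins A and C, fell by 0.12. Of 43 secretory and inflammatory genes, 21 were higher and 2 lower, with GDF15 and SERPINE2 called (median 0.11). Growth factors and proteases were among the higher genes, VEGFA by 0.70, LIF by 0.91 and MMP1, an interstitial collagenase, by 0.35. The interleukins that stand for this programme did not pass. Their means were all under 5, where shrinkage limits what can show, so a change in them may have been missed. The libraries of IL6 and IL8 did not overlap between the groups. IL6 lay between 4.03 and 4.08 in untreated cells and 4.10 and 4.19 after NCS, IL8 between 4.78 and 4.82 and then 4.86 and 4.93, IL1B between 3.78 and 3.83 and then 3.82 and 3.92, and IL1A between 1.09 and 1.15 and then 1.08 and 1.12. MMP3, whose mean was also under 5, did not pass either (0.03).

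Of the 62 clustered histone genes, 12 were higher and 5 lower, with 2 called higher (median 0.00). The share that was higher was near the 19.6% of all genes tested, and the share that was lower was under the 18.4%. HIST2H2BE rose from 6.79, 6.79 and 6.80 to 7.80, 7.87 and 7.74 (1.01, SE 0.06), HIST1H2BD by 1.00, HIST1H2AC by 0.84 and HIST1H2BK by 0.80. The 5 lower genes had differences between -0.14 and -0.03. The libraries were made from polyadenylated RNA, most histone messages of S phase carry no poly(A) tail, and copies of these genes are nearly identical, so their values are uncertain.

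Of 22 genes of the integrated stress response, which ATF4 drives, 20 were higher and none lower, with TRIB3 and SESN2 called (median 0.57). TRIB3, a pseudokinase, rose from 9.48, 9.41 and 9.52 to 10.50, 10.55 and 10.64, and CHAC1, a glutathione-degrading enzyme, by 0.94. DDIT3, which encodes CHOP, rose by 0.88, ASNS, asparagine synthetase, by 0.78 and ATF4 by 0.21. Of 20 ER chaperones and unfolded protein response genes, 8 were higher and 4 lower (median 0.06). ERN1, a sensor of ER stress, rose by 0.42 and DNAJB9 by 0.32, MANF and SDF2L1 had differences of -0.32 and -0.28, XBP1 rose by 0.15 and HSPA5, the main chaperone of the ER, did not pass (0.06). The 25 NRF2 targets had 7 higher and 3 lower (median 0.02), among them ABCC3 (0.78), ME1 (0.30), HMOX1 (0.27) and TXNRD1 (-0.25), while NQO1 did not pass (-0.03).

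Of 39 interferon-stimulated genes, 17 were higher and 1 lower, none called (median 0.16). TRIM22, also a p53 target, rose by 0.96, STAT2 by 0.62, XAF1 by 0.58, SAMD9L by 0.55 and ISG15 by 0.39. MX1 was uneven, with untreated values of 5.79, 5.70 and 5.62 and NCS values of 6.32, 5.89 and 6.46 (0.52, SE 0.16), and it no longer passed without NCS replicate 1 or 3. IFIT1 (0.10) and OAS1 (0.05) did not pass. Of 14 genes of class I antigen presentation, 8 were higher and 1 lower (median 0.10), led by TAP1 (0.62), ERAP2 (0.35), HLA-E (0.28) and HLA-B (0.22), with B2M at 0.08. Of 15 NF-kB subunits and feedback genes, 3 were higher and 7 lower (median -0.12). BIRC3, an inhibitor of death receptor signals, had a difference of -0.61, NFKB1 of -0.37 and NFKBIA of -0.18, RELB and CYLD rose by 0.28 and 0.22, and TNFAIP3 did not pass (0.03).

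Of 28 AP-1 and immediate-early genes, 8 were higher and 9 lower (median 0.00). FOS was called lower, from 6.82, 6.93 and 6.89 to 5.77, 5.77 and 5.85 (-1.09, SE 0.08), and EGR1 went from 11.21, 11.43 and 11.13 to 10.25, 10.42 and 10.19 (-0.97). JUN fell by 0.39. DUSP4, a phosphatase of the MAP kinases, rose by 0.87 and ATF3 by 0.76. Genes of this class are known to respond to serum as well as to stress.

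Of 18 BCL2 family genes, 8 were higher and 2 lower (median 0.07). BCL2 fell from 5.12, 5.06 and 4.99 to 4.59, 4.55 and 4.51 (-0.50), BCL2L1, which encodes BCL-XL, rose by 0.28, BCL2L2 and BAK1 by 0.18 and MCL1 by 0.09. BAK1 no longer passed when the fit held the compared groups alone, or without NCS replicate 3, untreated replicate 1 or untreated replicate 2. Of 27 lysosome and autophagy genes, 20 were higher and none lower (median 0.19), with GABARAPL1 at 0.62, WIPI1 at 0.53, TFEB, a transcription factor of lysosomal genes, at 0.44, MAP1LC3B at 0.43, SQSTM1 at 0.32, CTSD at 0.26 and LAMP1 at 0.17. Of 25 genes of sterol synthesis, 9 were higher and 2 lower (median 0.08), led by TM7SF2 (0.37) and MSMO1 (0.36) and with STARD4 at 0.24 and EBP at -0.26, and SQLE did not pass (0.10). Of 18 collagens, 10 were higher and 1 lower (median 0.11), with COL7A1 at 0.76, COL4A5 at 0.64, COL6A3 at 0.35, COL11A1 at 0.31 and COL3A1 at 0.18, and COL1A1 (0.07) and COL4A1 (-0.05) not passing. Of 26 TGF-beta and YAP response genes, 7 were higher and 12 lower (median -0.04). CYR61, CTGF, ID2 and SMAD3 had differences of -0.50, -0.41, -0.48 and -0.35.

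Ribosomal protein and housekeeping genes were counted in the same way as the other lists. Of 55 cytosolic ribosomal protein genes, 27 were higher and none lower, with small differences (median 0.08, highest 0.27 for RPS19). RPS27 rose by 0.20, RPS12 and RPS18 by 0.18 and RPS6 and RPL3 by 0.13. Of 10 housekeeping genes, 6 were lower and 1 higher (median -0.17). ACTB had a difference of -0.40, HPRT1 of -0.39, TBP of -0.31 and GUSB of -0.19, while GAPDH did not pass (0.02).

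The earlier NCS libraries show when these values were reached. Against NCS 8 h, 2 genes were called higher at 24 h (0.0102% of those tested) and 71 lower (0.361%), and by the adjusted p-value alone 2930 (14.9%) were higher and 2953 (15.0%) lower. Both comparisons share the NCS 24 h libraries. The genes called higher were SLC16A4, whose mean values were 7.45 without treatment and 7.42, 7.54 and 8.68 after 4, 8 and 24 h of NCS (difference from 8 h 1.13, SE 0.06, adjusted p = 3.59e-11 from limma), and SLC6A9, a glycine transporter (1.01). Without NCS 24 h replicate 2, NCS 24 h replicate 3 or NCS 8 h replicate 3, 1 gene was called higher. The 5 deepest falls from 8 to 24 h were those of MKI67 (-1.52), RRM2 (-1.48), KIF18B (-1.46), CDCA5, which protects cohesin (-1.45), and ASF1B, a histone chaperone (-1.41). Of the mitotic kinases 27 of 27 and of the spindle list 43 of 44 were lower than at 8 h, with 6 and 15 called and medians of -0.72 and -0.91. Of the origin and fork list 54 of 56 were lower, 10 called, with a median of -0.80, and of homologous recombination and Fanconi 32 of 38, 8 called (median -0.67).

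The course differed between members. PLK1 had mean values of 11.77 without treatment and 10.52, 9.68 and 8.89 after 4, 8 and 24 h, so that most of its fall was present at 8 h, and CENPA went from 8.16 to 6.76 at 4 h, 6.80 at 8 h and 6.11 at 24 h. RRM2 went from 12.67 to 12.70 at 4 h, 12.40 at 8 h and 10.92 at 24 h, and MCM2 from 11.10 to 11.10, 10.52 and 9.53. CDC6 (10.81, 10.97, 10.44 and 9.15) and MYBL2 (10.90, 10.99, 10.63 and 9.27) were above the untreated mean at 4 h. Differences between untreated cells and those at 4 h were not tested here. Among the p53 targets, CDKN1A had means of 14.12, 15.70, 15.59 and 15.60 and did not pass against 8 h (0.01), nor did GDF15 (0.17) or MDM2 (-0.14, adjusted p = 0.0849 from limma). The mean of MDM2 was highest at 4 h (11.70, 13.25, 12.83 and 12.69), and that of GDF15 at 24 h (9.17, 11.20, 11.40 and 11.57). BTG2 (-0.39) and FDXR (-0.29) were lower at 24 h than at 8 h and PAPPA (0.60) and UNC5B (0.94) higher. Of the 3 largest p53 lists, 4 of 19, 3 of 23 and 4 of 25 genes were higher at 24 h than at 8 h and 8, 11 and 8 lower. Genes of the integrated stress response (14 of 22 higher, 2 lower, median 0.25) and of the lysosome and autophagy (19 of 27 higher, 2 lower, median 0.16) were mostly higher than at 8 h, and of 20 ER genes 15 were lower (median -0.14). ATF3 differed from its value at 8 h by -0.88.

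**Figure D4:**
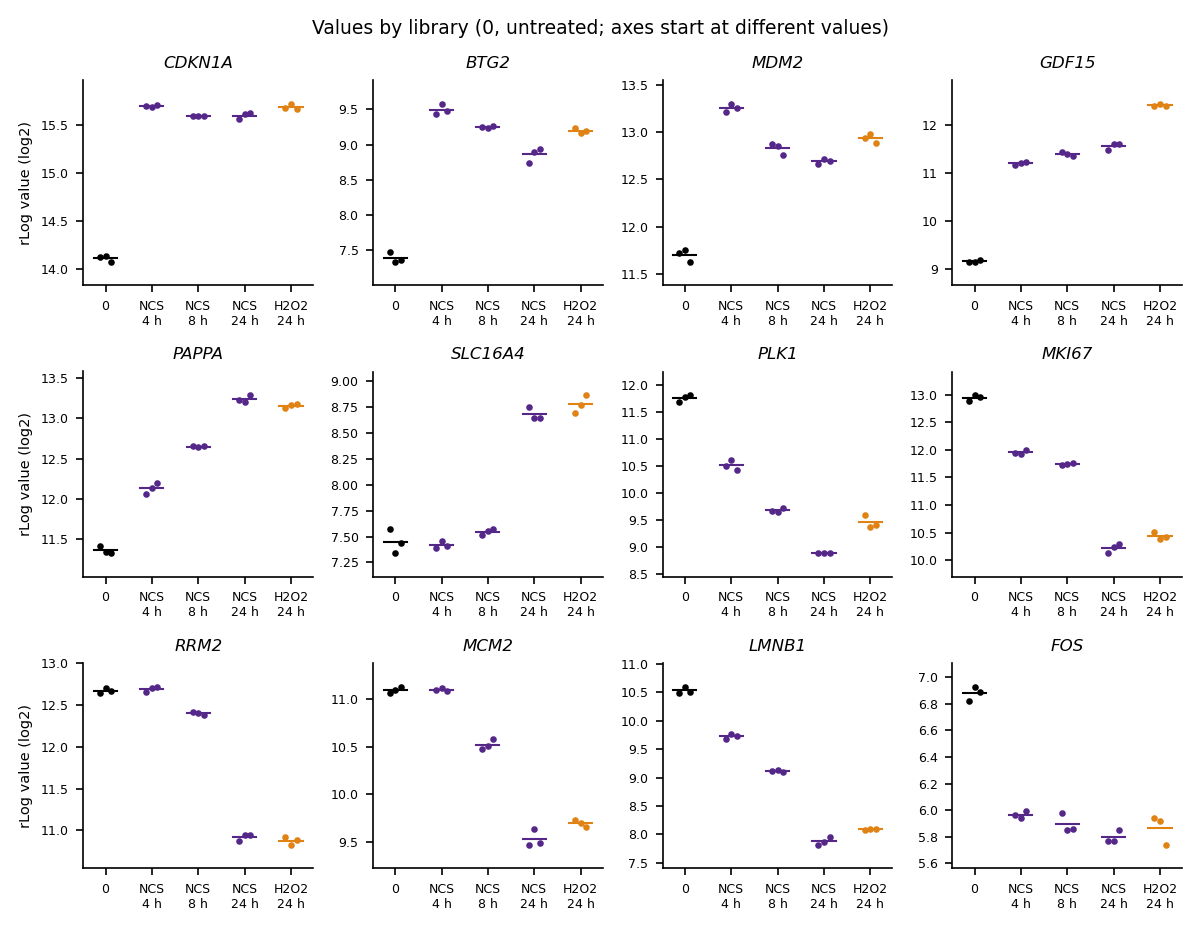
Values of 12 genes on the rLog (log2) scale, with 1 point for each library and a bar at the mean of 3, for untreated cells (0, black), NCS at 4, 8 and 24 h (purple) and H2O2 at 24 h (orange). The y axes differ and do not start at 0. PLK1 and LMNB1 fall at each time point, RRM2 is at 12.70 at 4 h and 10.92 at 24 h, and CDKN1A lies between 15.59 and 15.70 from 4 h on.

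NCS was also set beside H2O2, an oxidant, at the same time of 24 h, where the time in culture was equal. By the limits on both size and adjusted p-value, no gene (0.0% of those tested) was higher after NCS and 3 (0.0152%) were lower, while by the adjusted p-value alone 2144 (10.9%) were higher and 2171 (11.0%) lower. At an unadjusted p under 0.05 from limma, 2957 genes were higher, 0 of them by more than 1. DHRS2, a mitochondrial reductase, had values of 4.98, 4.90 and 5.36 after NCS and a mean of 6.59 ± 0.09 (SD, n = 3) after H2O2, a difference of -1.51 (SE 0.09, adjusted p = 2.14e-09 from limma). UNC5B was at 7.82, 7.99 and 8.02 after NCS and 9.43 ± 0.06 after H2O2 (-1.49, SE 0.08). G0S2, an inhibitor of lipolysis, was at 6.10, 6.24 and 6.18 and 7.21 ± 0.03 (-1.03, SE 0.07). All 3 were also higher after NCS than in untreated cells, by 0.43, 1.38 and 0.36. Without H2O2 24 h replicate 1, 5 genes were called lower, and without NCS 24 h replicate 1, 2 were.

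All 22 genes of the integrated stress response were lower after NCS than after H2O2, with a median of -0.54 and none called. TRIB3 had a difference of -0.98, ASNS of -0.87 and ATF4 of -0.34. Of the NRF2 targets, the genes of the antioxidant response, 19 of 25 were lower and none higher (median -0.26), with ABCC3 at -0.82, NQO1 at -0.81 and TXNRD1 at -0.71. Sterol synthesis genes lay the other way, 23 of 25 higher after NCS and none lower (median 0.37), with MSMO1 at 0.54 and SQLE at 0.52. Of the collagens 15 of 18 were higher and 1 lower (median 0.32), among them COL3A1 (0.55) and COL1A1 (0.45), with COL6A3 lower (-0.35).

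Genes of division had medians nearer to 0. Of the mitotic kinases 13 of 27 were lower after NCS than after H2O2, of the kinetochore list 15 of 41 and of the spindle list 21 of 44, none higher, with medians of -0.19, -0.10 and -0.19. PLK1 had a difference of -0.57, with means of 8.89 ± 0.01 after NCS and 9.46 ± 0.11 after H2O2 (SD, n = 3). Of the origin and fork genes 13 of 56 were lower and 3 higher (median -0.07), and of homologous recombination and Fanconi 6 of 38 were lower (median -0.04). RRM2 differed by 0.04 (SE 0.03, adjusted p = 0.287 from limma) and did not pass. CDKN1A (-0.09, adjusted p = 0.477) and FAS (-0.03) did not pass, BTG2 (-0.33), MDM2 (-0.24) and GDF15 (-0.85) were lower after NCS and LIF (0.50) higher. Of the lists of p53 targets, 3 of 19, 0 of 23, 3 of 25 and 2 of 10 genes were higher and 7, 5, 7 and 1 lower.

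**Figure D5:**
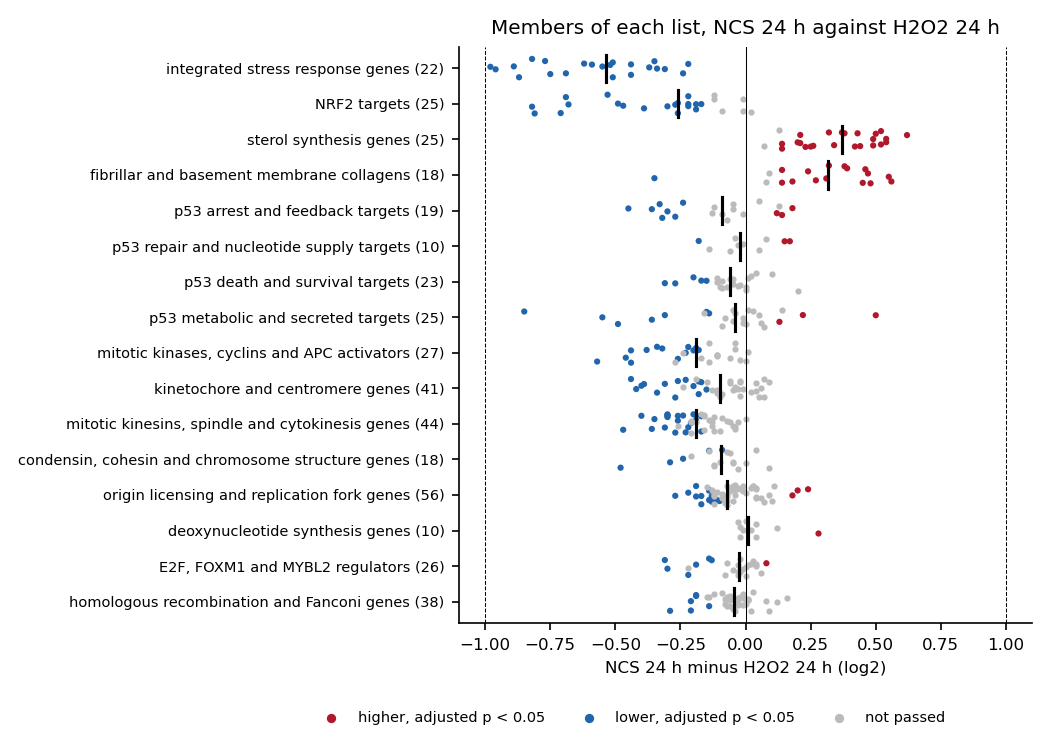
Each point is 1 gene, with its difference NCS 24 h minus H2O2 24 h on the log2 scale and 1 row for each of 16 lists, the number of genes tested in brackets. Red and blue mark an adjusted p under 0.05 (higher and lower after NCS), grey the rest, black bars the medians and dashed lines 1 and -1. The integrated stress response list lies wholly below 0 (median -0.54) and the sterol list above 0 (median 0.37).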

How the data were processed

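RNA of hTERT-HPNE cells was sequenced from stranded poly(A) libraries, 3 in each of 7 groups. The authors aligned reads with HISAT2, counted them with htseq-count and deposited log2 values made with the rLog transform of DESeq2. The submitters' processing notes name hg19, and the annotation and tool versions were not given in the sources used here. No counts were used, so the depth per library is unknown and no counting interval could be given. Of 23368 listed genes, 3674 had the same value in every library and 19694 were tested. In the table, 28 gene names had turned into dates and 2 names occurred more than once.

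Groups were taken from the labels. One limma fit (version 3.58.1 in R 4.3.3, empirical Bayes with a mean-variance trend) over all 7 groups gave NCS 24 h against untreated, NCS 8 h and H2O2 24 h, with Benjamini-Hochberg adjustment over all genes. A call needed an adjusted p under 0.05 and a log2 difference over 1. The procedure was run on simulated data for NCS 24 h against untreated, with 200 of 19694 genes shifted. Of these, 200 were recovered, and 11 others passed. The sizes of the shifts are not given here, nor whether recovery also needed a difference over 1. The recovery therefore does not show how well differences near 0.23, the median absolute difference of genes passing against untreated cells, are found. Tables used Python 3.11.15, pandas 2.3.3, numpy 2.4.6 and scipy 1.17.1, and plots matplotlib 3.10.9.

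Named genes were the 15 largest rises and 15 largest falls among called genes with libraries that do not overlap, the key genes of each of 32 lists and up to 4 members with the largest difference that passed, genes called against H2O2 24 h, the 5 largest rises and falls called against NCS 8 h, and called genes that went against the called members of their list. Some of these are not reported here. Lists and members were chosen with earlier results of these data known. Promoters came from RefSeq on GRCh38.p14, at the first listed start of a gene, and using any listed start was an alternative chosen after seeing the data. Other alternatives were the scaling of libraries, a minimum mean value of 5, a limit of 0.58 or none, a fit of the compared groups alone, the replicate number as a block, no variance trend and leaving out each replicate.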

Additional observations from a re-analysis of the deposited data

Results flagged for a closer look

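DHRS2, UNC5B and G0S2 are listed here because the change after NCS for 24 h and the change after H2O2 for 24 h differed by the test of the difference itself. NCS 24 h minus H2O2 24 h was -1.51 for DHRS2, -1.49 for UNC5B and -1.03 for G0S2 (adjusted p under the threshold from limma, with all 3 NCS libraries below the H2O2 mean). Both agents share the untreated libraries.

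BIRC3, an inhibitor of death receptor signals, is listed because NCS 24 h and NCS 8 h differed by the test of the difference itself, with changes from untreated cells of opposite sign, a log2 difference of 0.50 at the earlier time (limma, adjusted p = 4.46e-06) and of -0.61 at the later one (limma, adjusted p = 1.31e-07). Its means were 8.02 without treatment and 8.77, 8.52 and 7.40 after 4, 8 and 24 h of NCS, and 24 h minus 8 h was -1.11 (SE 0.06, adjusted p = 1.18e-10 from limma). At 24 h after H2O2 its mean was 7.51, and the agents did not differ past the threshold there (-0.10, adjusted p = 0.271 from limma).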

How the results depend on the processing

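Aligning library medians, a minimum mean value of 5, a fit of the compared groups alone and a fit with no variance trend left the 25 higher and 270 lower calls against untreated cells as the same genes, and quantile normalization gave 30 and 256. Leaving out 1 replicate gave 22 to 29 higher and 261 to 277 lower calls. Against NCS 8 h it gave 1 to 3 higher calls (1 without NCS 24 h replicate 2, without NCS 24 h replicate 3 or without NCS 8 h replicate 3) and 64 to 81 lower. Against H2O2 24 h it gave 0 higher and 2 to 5 lower (2 without NCS 24 h replicate 1, 5 without H2O2 24 h replicate 1). The counts turn on the limit of size. With a limit of 0.58 they were 186 higher and 595 lower against untreated cells, 43 and 298 against NCS 8 h and 35 and 55 against H2O2 24 h. With the adjusted p alone they were 3863 and 3627, 2930 and 2953, and 2144 and 2171.

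Under quantile normalization the list medians were 0.36 for p53 death and survival targets, 0.35 for metabolic and secreted targets, -1.88 for the spindle list, -1.15 for origins and forks, -0.23 for end joining, -0.48 for damage signalling, -0.06 for NF-kB, 0.16 for class I presentation and -0.14 for housekeeping genes. With library medians aligned the histone median was 0.01. Among all genes lower by the adjusted p alone, 14.4% of promoters held a CHR, 7.09% an E2F site and 40.1% a CCAAT box, against 12.4%, 3.93% and 36.2% of tested genes and 16.6%, 2.79% and 35.7% of the whole table, so the CHR share was not above that of the table. With any listed start, chosen after seeing the data, a CCAAT box was in 68.2% of those called lower, 42.3% of tested genes and 39.7% of the table. The causes were not tested.

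Replicate numbers were not used to pair the samples. Deviations of same-numbered libraries correlated weakly but positively, between 0.0197 and 0.165 over the comparisons with untreated cells, NCS 8 h and H2O2 24 h. Correlations of same-numbered libraries' deviations were 0.0752, 0.0531 and 0.131 between NCS 24 h and untreated cells, and a fit with the replicate block called the same 25 and 270 genes, the same 2 and 71 against NCS 8 h and the same 3 lower against H2O2 24 h. Of 2585 values of the 216 named genes under alternatives, 2554 kept direction and side of the threshold, 17 lost it, 14 gained it and 0 reversed. The depth is unknown, and rLog shrinkage limits what genes with few reads can show: of 8013 genes with a mean under 5, 0 were called and 485 passed by the adjusted p from limma.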

Other observations

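Of the 270 genes called lower, 78 were on none of the lists, and those named here were chosen after their values were seen. FAM111B, a protease linked to replication, had a difference of -2.24, ZNF367 one of -2.22 and SAPCD2 one of -2.02. IQGAP3 (-2.01), ERCC6L, a helicase of anaphase bridges (-1.94), CDCA7, which helps remodel nucleosomes (-1.91), and FBXO5, an inhibitor of the anaphase-promoting complex (-1.68), were also called, as were TMPO, a protein of the nuclear envelope (-1.82), and ATAD2 (-1.54). The chromatin proteins DEK, HMGN2 and NASP, the last a histone chaperone, had differences of -1.14, -1.10 and -1.08.

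Of the 25 genes called higher, 13 were on none of the lists. Besides PAPPA, UNC5B, PTCHD4, SLC16A4, CYFIP2, ADM2 and PLXNB3, they were FAM198B (1.04), FLJ41484 (1.04), DACH2 (1.03), CSGALNACT1, an enzyme of chondroitin sulfate synthesis (1.03), TSPAN10 (1.01) and HES2 (1.01).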
